A study of Homo sapiens with 9 samples.

Results

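TEX19, KRT18, CREB5 and FAM69C are 4 genes, of 26485 symbols in the count table, whose mRNA was present in parental MV4;11 leukaemia cells and nearly gone in both derivatives with a substituted MYC. They were chosen by the measured RNA levels themselves, for a large fall in K148Q and in K148R against parental libraries, so their differences from parental cells are described below with no test. MV4;11 is a human acute myeloid leukaemia line with a rearranged MLL gene. RNA sequencing covered 3 untreated libraries each of cells with the MYC K148Q substitution, cells with the MYC K148R substitution and parental cells, all grown in RPMI. The lysine at that site of MYC is replaced by glutamine in K148Q, often used to mimic acetylated lysine, and by arginine in K148R, which keeps the charge but cannot be acetylated. Library names carry one code per substitution, Q2 or R14, and the sources used here do not explain either code. Each substitution is thus represented by 1 coded line, and effects of the substitution cannot be told apart from other differences between the lines.

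The 4 genes belong to unrelated families. TEX19 is a mammalian germline gene; its mouse relative Tex19.1 restrains retrotransposons in germ cells and placenta. KRT18 encodes keratin 18, the acidic keratin of simple epithelia, which forms filaments together with keratin 8, the product of KRT8. CREB5 encodes a basic leucine zipper transcription factor that binds cAMP response elements and is closest to ATF2 and ATF7. FAM69C, now named DIPK1C, encodes a membrane protein of the secretory pathway with a kinase-like domain, and little is known of its role in blood cells. MYC, the protein that carries the substitutions, is a transcription factor that pairs with MAX and binds E-box sequences.

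Total counts ranged from 14477839 to 15708821 in K148Q, from 15161009 to 18938391 in K148R and from 13747087 to 16636974 in parental libraries. MYC mRNA averaged 473 ± 29.5 CPM (read counts scaled to library size) in K148Q, 379 ± 3.38 CPM in K148R and 333 ± 4.05 CPM in parental cells (SD, n = 3 each), and gene counts do not check the codon. K148Q replicate 3 stood apart from the other K148Q libraries, where the chi-square of the counts divided by its degrees of freedom was 16.9 and 17.4, against 1.33 between replicates 1 and 2. Where a call named below arises or ends without that library, both values are given. All 12 listed myeloid leukaemia markers, among them CD33, FLT3 and HOXA9, reached at least 1 CPM in each genotype. That list summed to 2280 to 2320 CPM in K148Q, 3790 to 3870 CPM in K148R and 1610 to 1630 CPM in parental libraries. Fibroblast markers, 8 in all, summed to 0.0684 to 0.31 CPM in K148Q, 5.39 to 8.86 CPM in K148R and 0.417 to 3.86 CPM in parental libraries, and their part in the results was not tested. The labels do not say whether libraries came from separate cultures, so p-values measure the spread between these libraries only.

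RefSeq promoter sequences on GRCh38.p14 were matched for CREB5 (3 starts) and, as DIPK1C, for FAM69C (1 start), so for 2 of the 4 genes. The 250 bases before each start are shown, read in the direction of transcription, because genes that lose expression together raise the question of what their promoters share. Capitals mark CG dinucleotides, the sites of DNA methylation. All 4 stretches lie inside the GENCODE v29 spans of their genes. Those spans start at position 28299321 for CREB5 and at 74457944 for FAM69C (minus strand), and no stretch covers either start.
CREB5 start 1 (chr7:28412268-28412517, plus strand): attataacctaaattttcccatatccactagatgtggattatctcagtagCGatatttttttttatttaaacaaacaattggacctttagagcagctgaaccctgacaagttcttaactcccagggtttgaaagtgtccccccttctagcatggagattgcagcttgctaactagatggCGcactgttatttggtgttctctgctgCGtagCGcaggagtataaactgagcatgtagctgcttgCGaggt
CREB5 start 2 (chr7:28435365-28435614, plus strand): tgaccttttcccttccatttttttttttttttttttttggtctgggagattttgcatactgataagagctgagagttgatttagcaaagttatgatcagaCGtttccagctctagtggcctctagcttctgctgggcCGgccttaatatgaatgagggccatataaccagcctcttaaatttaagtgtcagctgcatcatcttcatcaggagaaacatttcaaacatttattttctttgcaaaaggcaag
CREB5 start 3 (chr7:28685883-28686132, plus strand): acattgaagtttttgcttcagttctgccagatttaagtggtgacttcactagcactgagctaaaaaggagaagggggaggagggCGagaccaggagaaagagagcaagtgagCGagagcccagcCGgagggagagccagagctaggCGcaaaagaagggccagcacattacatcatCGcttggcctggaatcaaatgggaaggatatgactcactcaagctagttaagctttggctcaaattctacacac
FAM69C (chr18:74457309-74457558, minus strand): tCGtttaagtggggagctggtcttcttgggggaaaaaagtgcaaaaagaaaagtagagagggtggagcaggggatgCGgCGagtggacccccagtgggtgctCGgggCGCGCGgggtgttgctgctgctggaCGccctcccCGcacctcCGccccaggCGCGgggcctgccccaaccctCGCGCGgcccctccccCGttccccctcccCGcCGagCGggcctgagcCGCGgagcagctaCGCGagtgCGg

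The promoters differed in composition. The FAM69C window held 24 CG dinucleotides with 70.4% G or C, and 76.3% of the 35116 promoters in the table held fewer. The CREB5 windows held 5, 2 and 5 CG dinucleotides with 42%, 38.4% and 49.6% G or C, and 34.3%, 14.7% and 34.3% of promoters held fewer. The median promoter held 11. The E-box CACGTG was searched on both strands and matched in 0 of the 4 windows, while 6.34% of all promoters hold it. The cAMP response element TGACGTCA also matched in 0 of the 4 windows, while 1.65% of all promoters hold it. The AP-1 motif TGANTCA, searched in the same way, matched in the window of CREB5 start 3 and in 6.57% of all promoters. A match or its lack describes these letters only.

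TEX19 was the most abundant of the 4 genes in parental cells and the one with the largest difference in level. It lies on chromosome 17 (GRCh38, 82359247 to 82363776, plus strand). Its level was 0.261, 0.342 and 0.434 CPM in the K148Q libraries, 1.25, 1.42 and 1.42 CPM in the K148R libraries, and 132, 133 and 130.2 CPM in the parental libraries. Reads numbered 4, 5 and 7 in K148Q libraries, 23, 21 and 23 in K148R libraries, and 2189, 1841 and 2186 in parental libraries. Summed counts, scaled to library size, left 0.264% of the parental level in K148Q cells (95% exact interval 0.151% to 0.428%) and 1.03% in K148R cells (0.799% to 1.31%). These intervals cover counting error only. The log2 fold change was -8.54 in K148Q and -6.59 in K148R against parental cells, the 8th and 41st lowest of 12845 tested genes.

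CREB5 showed the second largest difference in K148Q cells. It spans chromosome 7 from 28299321 to 28825894 on the plus strand, and a processed pseudogene lies within it on the other strand. Its level was 0.0652, 0.137 and 0.062 CPM in K148Q libraries, 0.163, 0.61 and 0.372 CPM in K148R libraries, and 23.2, 24.2 and 25.1 CPM in parental libraries. The K148Q libraries held 4 reads in all, the K148R libraries 18 and the parental libraries 1139. That left 0.36% of the parental level in K148Q cells (95% exact interval 0.0978% to 0.923%) and 1.51% in K148R cells (0.894% to 2.4%). Its log2 fold change was -7.99 in K148Q and -6.01 in K148R cells against parental cells.

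KRT18 lies on chromosome 12 (52948871 to 52952901, plus strand), at one end of the cluster of basic keratin genes. Its level was 0.0652, 0.342 and 0.186 CPM in K148Q libraries, 0.0544, 0.339 and 0.372 CPM in K148R libraries, and 17.1, 14.8 and 16.8 CPM in parental libraries. The K148Q and K148R libraries overlapped fully, with 9 and 12 reads over 3 libraries, against 771 parental reads. This left 1.2% of the parental level in K148Q cells (0.544% to 2.28%) and 1.49% in K148R cells (0.767% to 2.62%). The log2 fold changes against parental cells were -6.32 and -6.01. KRT18 has many processed pseudogenes, of which 1, KRT18P55, was in the table, with 4 counts over all 9 libraries. The sources used here do not say how reads that match several copies were counted.

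FAM69C lies on chromosome 18 (74434099 to 74457944, minus strand). It had the smallest difference of the 4 in K148R cells, while in K148Q cells it was close to KRT18. Its level was 0.261, 0.274 and 0.062 CPM in K148Q libraries, 0.381, 0.407 and 0.434 CPM in K148R libraries, and 15.4, 16.6 and 14.7 CPM in parental libraries. Its reads summed to 9 in K148Q, 20 in K148R and 732 in parental libraries. In K148Q cells 1.26% of the parental level was left (0.573% to 2.4%), and in K148R cells 2.62% (1.59% to 4.07%). Its log2 fold change against parental cells was -6.26 in K148Q, where KRT18 had -6.32, and -5.23 in K148R.

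**Figure D1:**
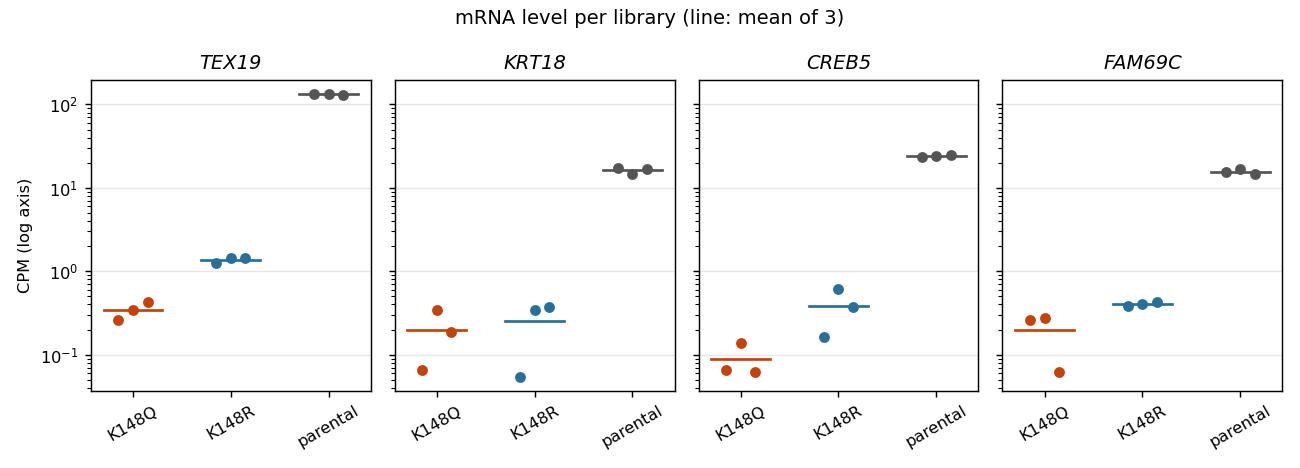
CPM of TEX19, KRT18, CREB5 and FAM69C on a log axis in each of the 9 libraries (points) with group means (lines), for K148Q, K148R and parental cells. All parental libraries lie at 14.7 CPM or above, and all mutant libraries at 1.42 CPM or below.

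In bulk RNA, fewer cells that express a gene and less RNA per cell cannot be told apart. All 4 genes passed the filter on low counts, which they met through the parental libraries: when only K148Q and K148R libraries were considered, TEX19 alone passed it. For orientation, 26.3% of the 12845 tested genes were called lower in K148Q than in parental cells and 37.3% in K148R than in parental cells, at a Benjamini-Hochberg adjusted p under 0.05 in edgeR's quasi-likelihood test. Calls in either direction made up 53.3% and 75.1% of tested genes. Calls that were lower by at least 16-fold made up 0.81% and 1.18% of tested genes, and all 4 genes were past that size in both comparisons, as their choice demands. Per kilobase of annotated exon, mean levels in parental cells were 68.1 CPM for TEX19, 5.05 for KRT18, 4.05 for FAM69C and 2.07 for CREB5. By this length-scaled level TEX19 was above 95% of 12140 tested genes with a known length, KRT18 above 46.5%, FAM69C above 41.7% and CREB5 above 28.7%. Spread between parental libraries was close to counting error, with an SD of 1.47 CPM for TEX19, where counting alone gives 2.89.

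**Figure D2:**
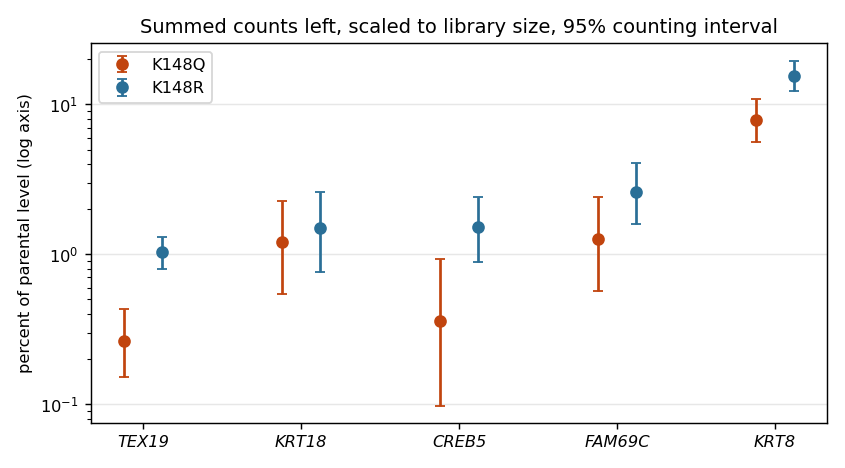
Percent of the parental level left in K148Q and K148R cells (log axis), from summed counts scaled to library size, with exact 95% counting intervals, for the 4 genes and for KRT8. The 4 genes lie between 0.264% and 2.62%, and KRT8 at 7.92% and 15.5%.

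The choice of the genes used the K148R and K148Q libraries, each against parental ones, but not the difference between the mutants. That difference was fitted, with the limit that both groups had to be low for a gene to be chosen. TEX19 was higher in K148R than in K148Q cells, although close to gone in either. In the fit of all 9 libraries 2 of the 4 genes, TEX19 and CREB5, were called higher and 0 lower, where 36.6% of all tested genes were called higher and 34.5% lower (71% in either direction), so with 4 genes the share is near the background. CREB5, FAM69C and KRT18 entered that fit through their parental reads, so the call for CREB5 is not taken as support for a difference. With the K148R and K148Q libraries alone TEX19 was the 1 gene of the 4 to be tested, and it was called (log2 fold change 1.917, edgeR adjusted p = 0.00037). TEX19 averaged 1.37 ± 0.0995 CPM in K148R and 0.346 ± 0.0867 CPM in K148Q cells (SD, n = 3 each), a ratio of summed counts of 3.92 (95% exact interval 2.25 to 7.24). In all 9 libraries its log2 fold change was 1.95 with an SE of 0.25 (edgeR adjusted p = 6e-06), and every K148R library was above every K148Q library. Without K148Q replicate 3, the library that stood apart, it was 2.13 (edgeR adjusted p = 6.8e-06).

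The other 3 genes are described by their reads. CREB5 averaged 0.382 ± 0.224 CPM in K148R and 0.088 ± 0.0423 CPM in K148Q cells, a ratio of 4.21 (1.39 to 17.1) that rests on 18 and 4 reads. K148R replicate 2 held 9 of the 18 reads. Without that library the fitted log2 fold change of CREB5 was 1.504, against 1.98 with it, and CREB5 was not called. FAM69C averaged 0.407 ± 0.0263 CPM in K148R and 0.199 ± 0.119 CPM in K148Q cells. Its ratio of summed counts, 2.08, had an interval of 0.905 to 5.18, and the fitted log2 fold change was 1.03, or 0.57 without K148Q replicate 3. KRT18 averaged 0.255 ± 0.174 CPM in K148R and 0.198 ± 0.139 CPM in K148Q cells, and its ratio of 1.25 had an interval of 0.482 to 3.35. For FAM69C and KRT18 a difference was not detectable at this depth. In order of level, parental cells were highest for each gene, K148R cells next and K148Q cells lowest, but K148R and K148Q overlapped for KRT18, and for FAM69C the interval of their ratio included 1.

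Other genes were also high in parental libraries and low in both mutants. Likeness was measured as the root mean square difference of log2(CPM + 0.5), centred on each gene's mean. It covered 12845 tested genes, and the 4 closest genes were listed for each of the 4. The added 0.5 CPM exceeds most K148Q and K148R values of the 4 genes, so differences in how far genes fell are compressed. For KRT18 and FAM69C the closest was RET, a receptor tyrosine kinase known from neural development, at 0.187 and 0.203 log2 units. RET had 0.0652, 0.274 and 0.124 CPM in K148Q libraries, 0.218, 0.203 and 0.434 CPM in K148R libraries, and 15.3 to 17.0 CPM in parental libraries. It also came second for CREB5 (0.368) and second for TEX19 (1.10). Its log2 fold changes were -6.65 in K148Q and -5.78 in K148R cells, given with no test because RET was picked for this pattern.

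The likeness of the 4 genes to one another follows from their choice and is given as a description. CREB5 was closest to TEX19, at 0.814, and KRT18 closest to CREB5, at 0.356. KRT18 and FAM69C differed by 0.293. TEX19 itself was farther from the rest, being 57th closest to KRT18 and 84th to FAM69C, and its range of levels was wider. The remaining names on the lists were IGLL1, ZNF841 and BBX. BBX fell less than FAM69C, with log2 fold changes of -4.07 in K148Q and -3.64 in K148R cells. IGLL1 averaged lower in K148R than in K148Q cells, unlike CREB5 and TEX19. Its libraries overlapped, with 2.17 CPM in K148R replicate 2 and 1.96 CPM in K148Q replicate 1. IGLL1, a surrogate light chain gene of early B cells, averaged 2.28 ± 0.322 CPM in K148Q, 1.38 ± 0.683 CPM in K148R and 67.4 ± 2.15 CPM in parental cells. The zinc finger gene ZNF841 held 1 read in K148Q and 5 reads in K148R libraries against a mean of 7.38 ± 0.792 CPM in parental cells. BBX, which encodes an HMG-box protein, averaged 7.35 ± 1.1 CPM in K148Q, 9.92 ± 0.763 CPM in K148R and 124 ± 2.12 CPM in parental cells. Both comparisons share the parental libraries, so likeness includes their common error.

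**Figure D3:**
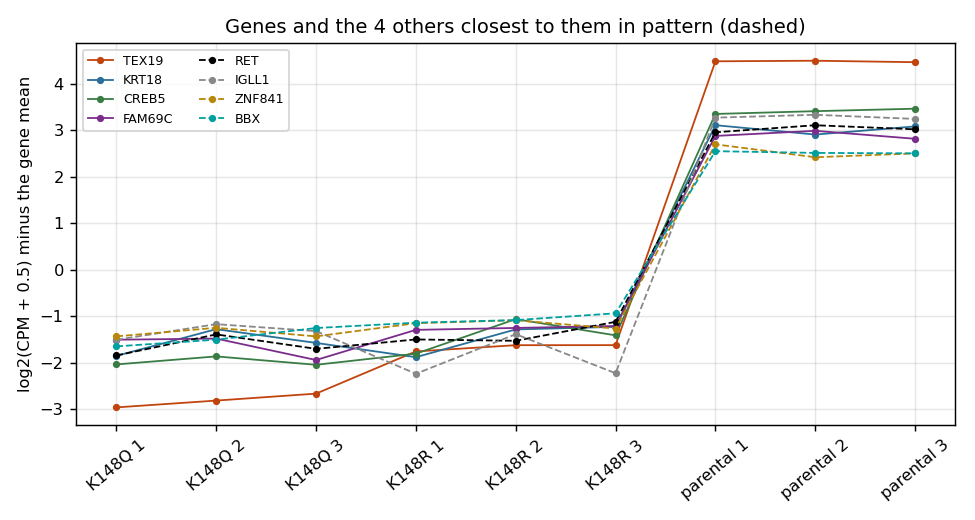
log2(CPM + 0.5) minus each gene's mean across the 9 libraries (joined only to guide the eye), for the 4 genes (solid) and the 4 others found closest to any of them (dashed). RET runs beside KRT18 and FAM69C, and TEX19 spans the widest range.

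Other germline and genome defence genes moved in both directions. Apart from TEX19 itself, 29 listed genes were in the table, 12 had 0 counts in all libraries and 11 were tested. In K148Q against parental cells 3 were higher and 3 lower (27% and 26.3% of all tested genes), with a median log2 fold change of -0.18, against -0.007 over all tested genes. In K148R against parental cells 4 were higher and 5 lower (37.8% and 37.3% of all tested genes), with a median of -0.04 against -0.003. Each median was the same with genes at 0 counts held at their bound. UBR2, the ubiquitin ligase that mouse Tex19.1 binds, averaged 71.7 CPM in K148Q, 82.7 CPM in K148R and 65.3 CPM in parental cells. Against parental cells it was called only in K148R (log2 fold change 0.34, edgeR adjusted p = 9e-04). Between the mutants it was called higher in K148R (log2 fold change 0.21, edgeR adjusted p = 0.025). UBR2 was named after its values were seen.

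Among the other germline genes, GTSF1, a PIWI pathway factor, fell in K148R cells. It averaged 52.6 ± 1.73 CPM in K148Q and 59.5 ± 2.33 CPM in parental cells (adjusted p = 0.059), and had 0 counts in the K148R libraries, at least 977-fold lower than in parental cells against a floor of 3 counts over the group. Between the mutants it was at least 863-fold lower in K148R than in K148Q cells (adjusted p = 1.3e-13). HORMAD1, a meiotic chromosome axis gene, averaged 46.2 ± 11.8 CPM in K148Q, 11.3 ± 2.9 CPM in K148R and 59.4 ± 1.58 CPM in parental cells. It fell in K148R cells (log2 fold change -2.40, adjusted p = 4.6e-07), while in K148Q cells the log2 fold change was -0.36 (adjusted p = 0.1) with all libraries and -0.58 (adjusted p = 4.1e-06) without replicate 3, the library that stood apart. MEIOB, a meiotic recombination gene, fell in both, to 2.44 ± 0.311 CPM in K148Q and 5.32 ± 0.683 CPM in K148R cells, against 11.4 ± 0.884 CPM in parental cells. DMC1, the meiotic recombinase, also fell in both, to 1.17 ± 0.337 CPM in K148Q and 0.0413 ± 0.0715 CPM (2 reads in all) in K148R cells, against 3.8 ± 0.542 CPM in parental cells. MOV10L1, a piRNA pathway helicase, rose in K148R cells to 6.44 ± 1.08 CPM, against 1.75 ± 0.105 CPM in parental cells. TDRKH, a piRNA trimming cofactor, rose in K148Q cells to 26.6 ± 1.05 CPM, against 13.4 ± 1.08 CPM in parental cells. Of 12 germ cell markers 6, DAZL and NANOS3 among them, had 0 counts in all libraries, and 8 had 0 counts in any 1 genotype. The list summed to 5.27 to 5.93 CPM in K148Q, 0.372 to 0.762 CPM in K148R and 0.579 to 0.844 CPM in parental libraries, and most of the K148Q sum was ZBTB16, at 5.34 ± 0.47 CPM.

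KRT8, the filament partner of KRT18, was low in both mutants too, to a smaller degree. It had 0.652, 0.479 and 1.49 CPM in K148Q libraries, 1.58, 2.51 and 1.24 CPM in K148R libraries, and 11.4, 12.1 and 10.4 CPM in parental libraries. K148Q and K148R libraries overlapped, and every parental library was above them. KRT8 fell in K148Q (log2 fold change -3.65, SE 0.275, adjusted p = 6.5e-08) and in K148R cells (-2.68, SE 0.24, adjusted p = 9.9e-08). KRT18 reads made up 18% of the reads of both genes in K148Q cells (95% exact interval 8.58% to 31.4%), 12.2% in K148R cells (6.49% to 20.4%) and 59.3% in parental cells (56.5% to 61.9%). These intervals cover counting error only, and KRT18 was chosen for its low level in the mutants, so the lower share there follows in part from the choice. The annotated spans of KRT8 and KRT18 overlap by 1084 bases on opposite strands, and the sources used here do not give the strand setting of the counting.

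Other filament genes moved in both directions. Of the 31 keratin and intermediate filament genes in the table beside KRT18, 8 were tested and 10 had 0 counts in all libraries. In K148Q cells 2 were higher and 1, KRT8, lower against parental cells, or 4 and 2 without K148Q replicate 3. The lower count was also 2 without parental replicate 2, either of the other K148Q libraries or any K148R library. It was 2 in the DESeq2 Wald test and 3 when genes with low counts were kept. With only the 6 compared libraries 1 was higher. In K148R cells 4 were higher and 4 lower against parental cells (medians 0.09 in K148Q and -0.35 in K148R). Over all tested genes the shares were 27% higher and 26.3% lower in K148Q, and 37.8% and 37.3% in K148R cells. LMNA, which encodes lamins A and C of the nuclear envelope, rose to 353 ± 36.1 CPM in K148Q and 733 ± 35.3 CPM in K148R cells, against 136 ± 6.2 CPM in parental cells. LMNB1 and LMNB2, the B-type lamins, fell in K148R cells to 140 ± 5.69 and 262 ± 14.3 CPM, against 445 ± 11.5 and 523 ± 10.9 CPM in parental cells. NEFH, a neurofilament gene, fell in K148R cells to 0.165 ± 0.105 CPM, against 9.89 ± 0.745 CPM in parental cells, but was 11.1 ± 0.234 CPM in K148Q cells. VIM, the vimentin of blood and mesenchymal cells, rose in K148R cells to 363 ± 7.39 CPM, against 268 ± 9.31 CPM in parental cells. KRT23, singled out after its values were seen, went the other way from KRT18: it had 1.11, 0.547 and 0.992 CPM in K148Q libraries, 0.816, 1.83 and 1.18 CPM in K148R libraries, and 0 counts in parental libraries, at least 14-fold and 19.5-fold higher in the mutants. Of 12 epithelial markers 8 had 0 counts in K148Q, 2 in K148R and 4 in parental cells, with EPCAM at 0 in all. KRT19 had 0 counts in both mutants and only 1 read over the parental libraries. The 11 markers other than KRT8 summed to 4.59 to 5.15 CPM in K148Q, 8.11 to 9.35 CPM in K148R and 4.47 to 5.55 CPM in parental libraries, and their part in the levels of KRT18 was not tested.

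The closest relatives of CREB5, ATF2 and ATF7, stayed well expressed in all groups. ATF2 averaged 52.3 ± 7.38 CPM in K148Q, 51 ± 2.58 CPM in K148R and 69.9 ± 4.45 CPM in parental cells, a log2 fold change of -0.42 (adjusted p = 0.0015) and -0.45 (adjusted p = 4e-04). ATF7 averaged 39 ± 0.408 CPM in K148Q, 38.8 ± 4.08 CPM in K148R and 36.2 ± 1 CPM in parental cells and was not called in either comparison (adjusted p = 0.29 in each). Of 24 other tested CREB and ATF family genes and coactivators, 7 were higher and 8 lower in K148Q against parental cells (median 0.09), and 13 were higher and 4 lower in K148R against parental cells (median 0.25). Among all tested genes 27% were higher and 26.3% lower in K148Q, and 37.8% and 37.3% in K148R cells. Between the mutants 15 were higher and 1 lower in K148R than in K148Q cells, or 2 lower without K148Q replicate 1 or 2 or K148R replicate 2 (median 0.32, against 0.017 over all tested genes, of which 36.6% were higher and 34.5% lower). CREBBP, the acetyltransferase that binds CREB, rose to 68.5 ± 2.45 CPM in K148Q and 147 ± 2.06 CPM in K148R cells, against 45.1 ± 1.31 CPM in parental cells. ATF3, a stress-induced member, rose in K148R cells to 19 ± 0.63 CPM, against 2.03 ± 0.208 CPM in parental cells, and was 2.92 ± 0.959 CPM in K148Q cells (adjusted p = 0.07, or 0.0032 without K148Q replicate 3). EP300, the paralogue of CREBBP, and the CREB coactivator CRTC1 rose in both mutants, and ATF5 fell in K148Q cells to 50.3 ± 4.82 CPM, against 94.2 ± 3.73 CPM in parental cells.

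Relatives of FAM69C were low or moved in both directions. FAM69A averaged 0.769 ± 0.408 CPM in K148Q, 0.168 ± 0.0897 CPM in K148R and 2.25 ± 0.644 CPM in parental cells and fell in both (log2 fold changes -1.51 with adjusted p = 0.0023 and -3.72 with adjusted p = 4.9e-06). FAM69B averaged 2.57 ± 0.844 CPM in K148Q, 0.327 ± 0.242 CPM in K148R and 1.77 ± 0.819 CPM in parental cells and fell in K148R cells against parental (adjusted p = 0.00064) and against K148Q cells (adjusted p = 7.8e-05). Against parental its K148Q level was not called (adjusted p = 0.23), but was without K148Q replicate 3 (0.033). Of 8 tested genes of the wider group of secretory pathway kinases, 3 were higher and 2 lower in K148Q and 4 were higher and 4 lower in K148R against parental cells, with a median of 0.12 in each, where 27% of all tested genes were higher and 26.3% lower in K148Q, against 37.8% and 37.3% in K148R cells. FAM20C, the kinase of secreted phosphoproteins, rose to 80.2 ± 8.37 CPM in K148Q and 105 ± 5.3 CPM in K148R cells, against 49.2 ± 3.15 CPM in parental cells. PKDCC, a secreted tyrosine kinase, fell to 0.958 ± 0.12 CPM in K148Q and 0.391 ± 0.112 CPM in K148R cells, against 2.59 ± 0.5 CPM in parental cells.

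**Figure D4:**
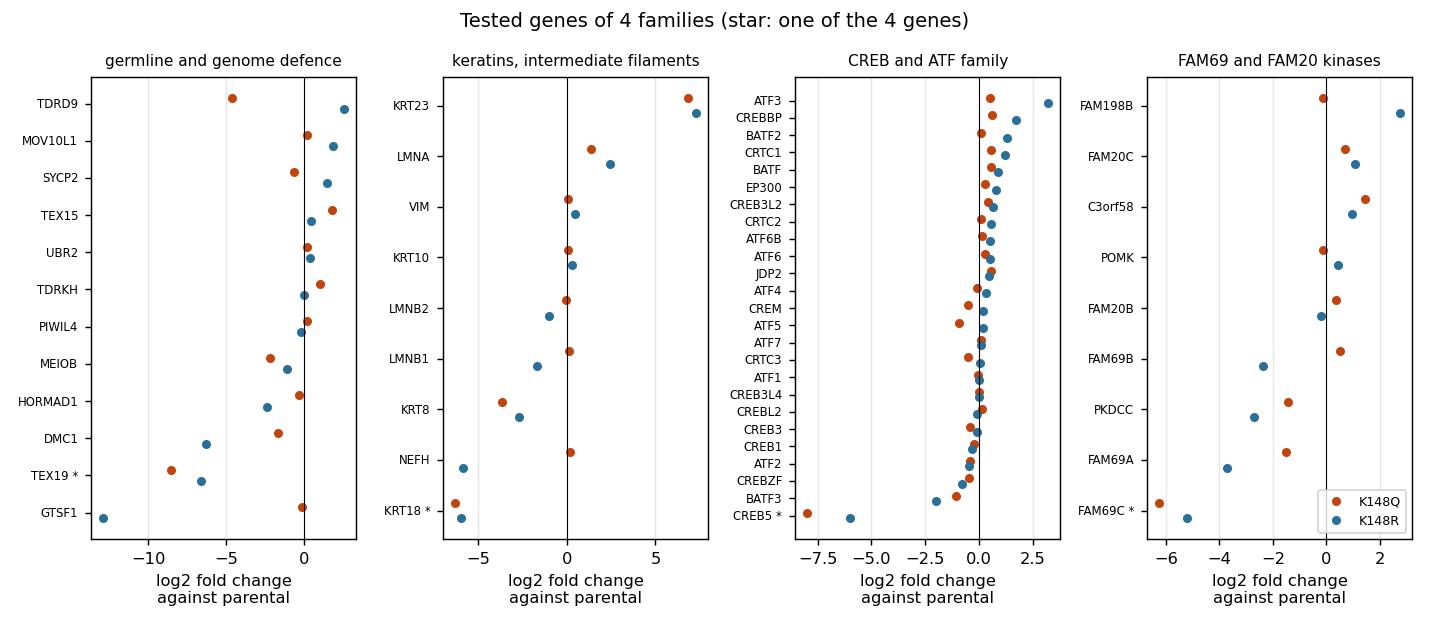
log2 fold change of K148Q and of K148R cells against parental cells for the tested genes of the 4 families, sorted by the K148R value, with TEX19, KRT18, CREB5 and FAM69C starred. The fitted values of genes with 0 counts in a group, such as GTSF1 in K148R and KRT23 in parental cells, are no measured size; ATF2 and ATF7 lie near 0 while CREB5 lies at -7.99 and -6.01.

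Enzymes and readers of DNA methylation were listed because TEX19 is known as a gene silenced by promoter methylation in somatic tissue of the mouse. All 15 were tested, and methylation itself was not measured. In K148Q against parental cells 6 were higher and 7 lower (median -0.15), though 3 were higher without K148Q replicate 1. In K148R against parental cells 4 were higher and 8 lower (median -0.36). The shares over all tested genes were 27% higher and 26.3% lower in K148Q, and 37.8% and 37.3% in K148R cells. UHRF1, which recruits the maintenance methyltransferase, fell to 244 ± 13.9 CPM in K148Q and 31 ± 2.34 CPM in K148R cells, against 317 ± 4.93 CPM in parental cells. DNMT1, that methyltransferase, fell in K148R cells to 252 ± 7.13 CPM, against 605 ± 14.1 CPM in parental cells. In K148Q cells DNMT1 was 678 ± 46.7 CPM and called higher (log2 fold change 0.16, edgeR adjusted p = 0.018). That call was lost in 4 of 14 other fits. DNMT3A, which sets new methylation, fell to 28.9 ± 0.885 CPM in K148Q and 18 ± 0.58 CPM in K148R cells, against 39.8 ± 1.46 CPM in parental cells. HELLS, a chromatin remodeller needed for methylation, fell in K148R cells to 2.95 ± 1.12 CPM, against 61.3 ± 2.47 CPM in parental cells. In K148Q cells HELLS was 44.4 ± 10.3 CPM and called lower (log2 fold change -0.46, edgeR adjusted p = 0.03). This call was lost in 6 of 14 other fits. ZBTB38, a methyl-CpG binding zinc finger protein, rose to 10.1 ± 0.448 CPM in K148Q and 16.5 ± 1.3 CPM in K148R cells, against 5.19 ± 0.279 CPM in parental cells.

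Genes around the 4 loci were examined to see how far the low levels extended. Coding genes that start within 500 kb of each gene's start were taken from GENCODE v29. Around TEX19, 31 neighbours were tested, with 16 higher and 4 lower in K148Q and 16 higher and 7 lower in K148R cells against parental cells (medians 0.21 and 0.2). Without K148Q replicate 3, 21 were higher in K148Q cells. Of all tested genes 27% were higher and 26.3% lower in K148Q, and 37.8% and 37.3% in K148R cells, shares that also stand beside the neighbours of the other genes. SECTM1, the nearest tested gene on one side at 25.2 kb, averaged 9.24 ± 1.26 CPM in K148Q, 23.6 ± 1.74 CPM in K148R and 15.4 ± 0.374 CPM in parental cells. HEXDC, the nearest on the other side at 59.1 kb, averaged 15.7 ± 1.06 CPM in K148Q, 21.3 ± 1.39 CPM in K148R and 13.9 ± 1.09 CPM in parental cells. CD7, a T cell antigen gene at 41.6 kb that was named after its values were seen, was the 1 neighbour lower by at least 2-fold in K148Q cells, where 6.68% of all tested genes were. It averaged 0.394 ± 0.133 CPM in K148Q, 0.431 ± 0.243 CPM in K148R and 1.51 ± 0.189 CPM in parental cells. In K148R cells 6 of the 31 were lower by at least 2-fold, where 14.8% of all tested genes were.

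KRT18 had KRT8 as its nearest neighbour, with starts 1.08 kb apart. All 16 coding genes that start within 500 kb before KRT18 are keratin genes; 13 had 0 counts in every library, and none was tested, with at most 10 reads over 9 libraries. On the other side and including KRT8, 15 neighbours were tested, with 6 higher (3 without K148Q replicate 1) and 3 lower in K148Q and 7 higher and 4 lower in K148R cells against parental cells. Around FAM69C 4 genes were tested. CYB5A, 166 kb away and encoding cytochrome b5, fell to 10 ± 0.451 CPM in K148Q and 4.12 ± 1.12 CPM in K148R cells, against 21.1 ± 0.3 CPM in parental cells. CNDP2, the dipeptidase gene 37.9 kb away on the other side, averaged 112 ± 6.66 CPM in K148Q, 175 ± 4.4 CPM in K148R and 127 ± 3.39 CPM in parental cells. CREB5 had 1 coding neighbour in the window, JAZF1 at 119 kb, which averaged 0.237 ± 0.0635 CPM in K148Q, 0.633 ± 0.191 CPM in K148R and 0.58 ± 0.191 CPM in parental cells. Its K148Q call (log2 fold change -1.28, edgeR adjusted p = 0.036) was lost in 7 of 13 other fits. Among them were those without parental replicate 1 or 3 and without K148Q replicate 1 or 2, where edgeR adjusted p reached 0.13. In the DESeq2 Wald test adjusted p was 0.14.

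**Figure D5:**
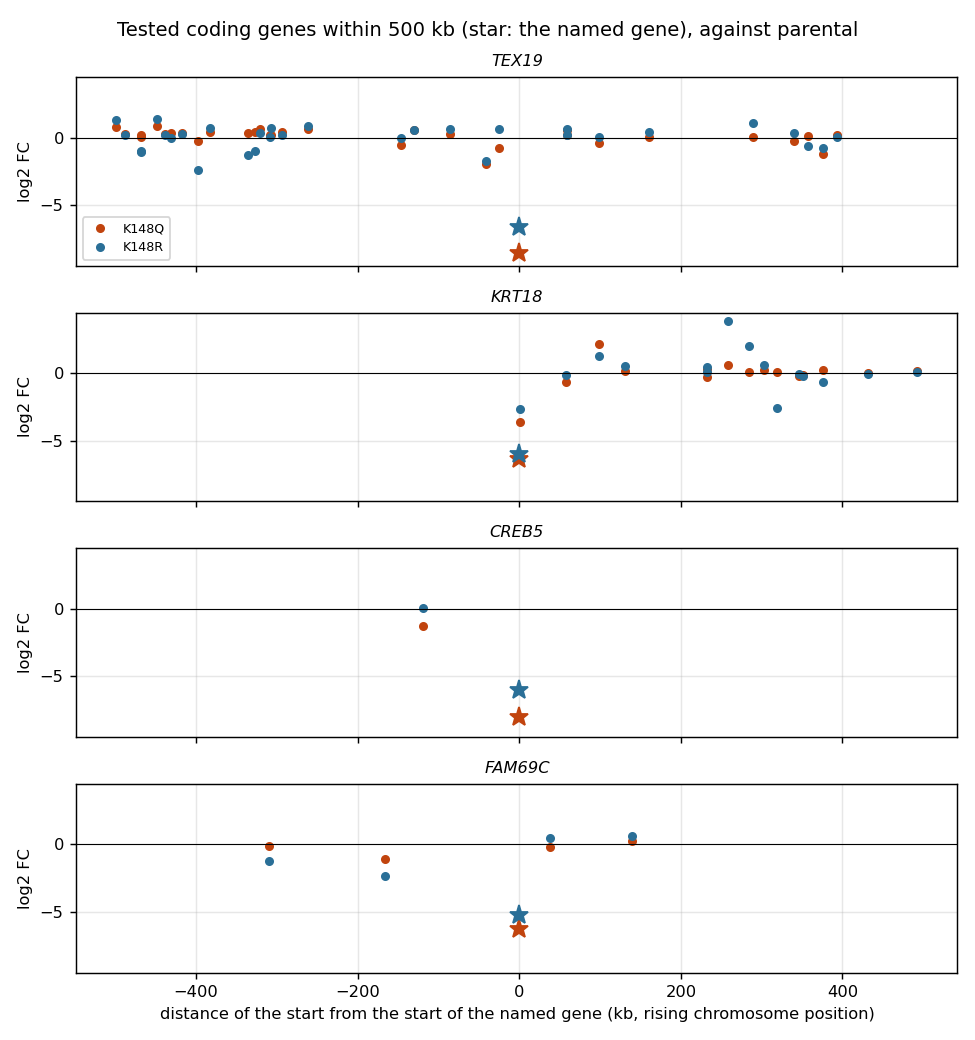
log2 fold change of tested coding genes within 500 kb of TEX19, KRT18, CREB5 and FAM69C (stars at 0 kb), for K148Q and K148R cells against parental cells, by distance of their starts in kb. The lowest neighbour is KRT8, at -3.65 and -2.68.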

How the data were processed

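For 9 libraries the authors deposited raw counts by gene symbol. The build GRCh38 and the tools featureCounts 1.5.2, HISAT2 2.0.5 and FastQC 0.11.7 are named, per the submitters' processing notes. The sources used here give no options, strand setting or annotation. Groups follow the genotype in the labels.

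Genes were filtered with filterByExpr by group (12845 of 26485 kept), scaled by TMM and tested by edgeR 4.0.16 (robust quasi-likelihood, R 4.3.3), all 9 libraries in 1 fit with a term per genotype, and Benjamini-Hochberg adjusted p under 0.05 was called. CPM uses TMM-scaled library sizes. Intervals of summed counts are exact binomial at 95% (scipy 1.17.1). A permutation of 3 against 3 libraries cannot go below 0.1. The test was checked on simulated data. The genes and lists were chosen with earlier results of these data known. Named are the 4 genes, the 4 genes most like each in pattern, up to 6 called list genes with the smallest p, close paralogues and the nearest tested neighbours. Positions, exon lengths and neighbours are from GENCODE v29. DESeq2 1.42.0, its size factors, a replicate block, keeping genes with low counts, using the 6 compared libraries alone and leaving out each library were tried.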

Additional observations from a re-analysis of the deposited data

How the results depend on the processing

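In K148R against K148Q cells 2 of the 4 genes, TEX19 and CREB5, were called. The number of calls was the same in 12 of 14 other fits. All 12 kept parental libraries, through which CREB5 passed the filter on low counts where it was used. Its repeated call is therefore no separate support. With only the 6 K148R and K148Q libraries 1 gene was called, because CREB5, KRT18 and FAM69C no longer passed that filter. Leaving out each library in turn gave 1 to 2 calls, with 1 when K148R replicate 2 was left out. Over all genes, leaving out a library gave 5829 to 8402 calls in K148Q against parental, 9164 to 10473 in K148R against parental and 8675 to 9736 in K148R against K148Q. TEX19 kept a log2 fold change of 1.78 to 2.13 in K148R against K148Q cells (adjusted p from 4.8e-07 to 0.00037). The labels do not say whether the replicate numbers pair the libraries. Same-numbered libraries correlated from -0.024 to 0.269 and differently numbered ones from -0.239 to 0.173. The highest value lay between replicate 3 of K148Q and replicate 3 of K148R, and these values do not decide whether the numbers pair. A replicate block gave 2 calls among the 4 genes. Over all genes it gave 7262, 9821 and 9410 calls, against 6848, 9649 and 9126 without it.

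Small values changed sign when a library was left out. KRT18 in K148R against K148Q became -0.097 without K148Q replicate 1 and -0.102 without K148R replicate 3, and reached 0.895 without K148Q replicate 2. ATF2 and ATF7 in the same comparison became 0.067 without K148Q replicate 3 and 0.076 without K148R replicate 3, with lowest values of -0.114 and -0.057. FAM198B in K148Q against parental became 0.082, 0.247 and 0 without parental replicate 1, K148Q replicate 1 and K148Q replicate 2, and -0.868 without K148Q replicate 3. In K148R against parental, TDRKH became 0.016 without K148R replicate 1 (lowest -0.109), and JAZF1 -0.137 and -0.108 without parental and K148R replicate 2 (highest 0.292). The cause was not tested. Depth limits the comparison of K148R with K148Q for CREB5, KRT18 and FAM69C, which held 4 to 20 reads per group.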
